A study of Mus musculus with 7 samples.

Results

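This report follows 10 mouse genes of antigen presentation by MHC class I: the light chain gene B2m, the heavy chain genes H2-K1 and H2-D1, the peptide transport and loading genes Tap1, Tap2 and Tapbp, the immunoproteasome subunit genes Psmb8, Psmb9 and Psmb10, and the transcriptional regulator gene Nlrc5. They are 10 of the 53465 genes in the table of estimated counts, and all 10 were found there by symbol. They were chosen by name with fold changes between the EMT6-PTR and EMT6-P tumors already measured and known, that of Psmb10 among them, so their values in that comparison are a description. EMT6 is a carcinoma line of the BALB/c mouse mammary gland. In every group 500000 cells were placed in the mammary fat pad of female Balb/c mice, 6 to 8 weeks old by the study's methods, and antibody was given at 250 μg per mouse every 3 days from the first day after implantation until the institutional endpoint. The 3 EMT6-P tumors grew from parental cells under an isotype control IgG. The 3 EMT6-PTR tumors (written PDR in the labels) and the 1 metastasis grew from a variant that had been selected for resistance to αPD-L1, an antibody against the checkpoint ligand PD-L1, and these mice received that antibody, so cell variant and treatment cannot be told apart. The labels do not name the organ of the metastasis. Nothing states how the tumors were distributed over cages or extraction days, and p-values measure the spread between these 6 primary tumors. Because the EMT6-PTR tumors carry the same selected variant, this spread does not cover other resistant variants. The libraries held 20430110 to 25213472 estimated counts. EMT6-PTR tumor 3 stood apart from the other primary tumors by a high sum of fibroblast markers and a low sum of carcinoma markers, the latter mostly Krt8 and Krt18. The metastasis stood apart by high lung markers. Where leaving out 1 tumor moved the fold change of a named gene strongly or turned its sign, the value without that tumor is given as well.

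MHC class I molecules show peptides from inside the cell to CD8+ T cells. The proteasome cuts proteins into peptides, Tap1 and Tap2 together carry these peptides into the endoplasmic reticulum, and tapasin (Tapbp) holds the empty complex of heavy chain and β2-microglobulin (B2m) near the transporter until a peptide is bound. Interferon γ raises all of these genes, replaces 3 catalytic subunits of the constitutive proteasome with Psmb8, Psmb9 and Psmb10, and induces Nlrc5, which binds the shared promoter modules of class I genes. Nearly all nucleated cells carry class I, so in a bulk tumor the carcinoma cells, fibroblasts, vessels and leukocytes all contribute, and fewer cells of a type cannot be told apart from less RNA per cell.

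The promoters of 8 of the 10 genes were found in the RefSeq table of the GRCm38.p6 build, and the windows from 200 to 2 bases before the annotated starts were searched on both strands. The B2m window and that of the upstream H2-K1 start hold no annotated exon. Exons of the same gene cover all 199 bases of the H2-D1, Psmb8 and Psmb9 windows, 145 of Tapbp and 51 of Psmb10. Exons of Psmb9 cover the Tap1 window. Windows covered by exons are not purely upstream sequence. B2m and H2-K1 are shown because they encode the light and a heavy chain of 1 complex and lay on the other side of the EMT6-P mean from the immunoproteasome genes in EMT6-PTR tumor 3. Capitals mark the matches to AANNGAAA (core of an interferon-stimulated response element), TGACG (core of the X2 box or cAMP response element), CCAAT (the box bound by nuclear factor Y, which both printed strands carry in its reverse form) and GGGNNNTCC (kappa B element). The letters for the interferon element were set after the sequences had been seen.
B2m, plus strand, chr2:122147487-122147685: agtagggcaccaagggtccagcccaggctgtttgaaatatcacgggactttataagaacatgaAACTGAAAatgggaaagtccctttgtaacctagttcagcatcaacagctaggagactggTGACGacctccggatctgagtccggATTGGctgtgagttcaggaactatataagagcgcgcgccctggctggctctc
H2-K1, minus strand, chr17:34000349-34000547: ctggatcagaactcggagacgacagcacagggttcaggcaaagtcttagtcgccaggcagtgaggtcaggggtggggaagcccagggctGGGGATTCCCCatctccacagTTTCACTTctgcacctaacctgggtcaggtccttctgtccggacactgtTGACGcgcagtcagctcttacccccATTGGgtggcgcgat
In B2m the interferon element lay 137 to 130 bases, the TGACG core 78 to 74 bases and the CCAAT box 53 to 49 bases before the start. In H2-K1 the same elements stood in the same order, at 90 to 83, 41 to 37 and 16 to 12 bases before the upstream of its 2 listed starts, and the kappa B letters matched in 2 overlapping places of a palindrome 111 to 101 bases before it. The stretches of 30 bases that begin at this palindrome are set side by side for both heavy chains because they differ at so few places.
H2-K1, minus strand, chr17:34000429-34000458: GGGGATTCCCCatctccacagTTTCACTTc
H2-D1, plus strand, chr17:35262923-35262952: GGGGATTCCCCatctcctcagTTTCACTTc
They are identical at 29 of 30 bases. The AANNGAAA letters were present in 3 of the 8 members' windows (B2m, H2-K1 and H2-D1) and in 17% of the 32851 windows of all listed promoters. H2-K1 and H2-D1 are nearly identical there, and these letters were set with the sequences seen, so the 2 shares are no test. GGGNNNTCC was present in H2-K1 and H2-D1 and in 12.6% of all windows. CCAAT was present in 5 of 8 and in 29.3% of all, and TGACG in 5 of 8 and in 15.6% of all. The windows of Psmb9 and Tap1 overlap on opposite strands and their TGACG matches are the same bases, so these windows are not independent. TTCNNNGAA (gamma-activated site) was present in Psmb8 alone of the 8 and in 5.47% of all windows. A match is a string of letters and no evidence of binding, and the reference is a C57BL/6 genome with other class I alleles than BALB/c.

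In the EMT6-P tumors the members were among the well expressed genes. Levels are CPM values, the counts scaled to library size, on the upper-quartile scale, and only for comparing genes they are divided by the length of the annotated exons in kilobases. On that length-scaled level B2m stood first at 2886 ± 51.3 CPM per kb (SD, n = 3), at rank 11 of 15631 genes. H2-D1 followed at 876 ± 6.74 and H2-K1 at 547 ± 28.0 CPM per kb. Tapbp had 170 ± 8.79, Psmb8 103 ± 8.23, Psmb10 49.2 ± 6.15, Tap2 35.3 ± 1.55, Psmb9 28.3 ± 1.05 and Tap1 22.2 ± 2.21 CPM per kb. Nlrc5 stood last at 7.93 ± 0.422 CPM per kb, at rank 5785. No 2 neighbours in this order had overlapping ranges over the 3 EMT6-P tumors. In the 3 EMT6-PTR tumors the first 5 places were held by the same genes in the same order, and the ranges overlapped between H2-D1 and H2-K1, between Tap2 and Psmb10, between Psmb10 and Tap1 and between Tap1 and Psmb9. Annotated exons include those of rare transcripts, so the order holds on this length scale.

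None of the 10 members was called between EMT6-PTR and EMT6-P by edgeR's quasi-likelihood test at an adjusted p under 0.05, and the share called over all 15645 genes tested was 0%. At an unadjusted p under 0.05, 0 members were higher, beside 5.84% of all genes, and 1 was lower (Psmb10), beside 5.57% of all genes. DESeq2, run as an alternative, called 281 genes, none of them a member. The members' median log2 fold change was 0.051, and the median over all genes was 0.025. Fold changes above 0 and below 0 were found for 6 and 4 members. All 3 EMT6-PTR values lay below all 3 EMT6-P values for 2 members (Psmb8 and Psmb10), beside 11.8% of all genes, and above them for 0 members, beside 9.52% of all genes. What separated the groups was the spread: the highest tumor exceeded the lowest by a median factor of 1.10 over the members within EMT6-P and of 1.55 within EMT6-PTR, beside 1.23 and 1.68 over all genes tested. The members thus spread no more widely than genes at large.

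**Figure D1:**
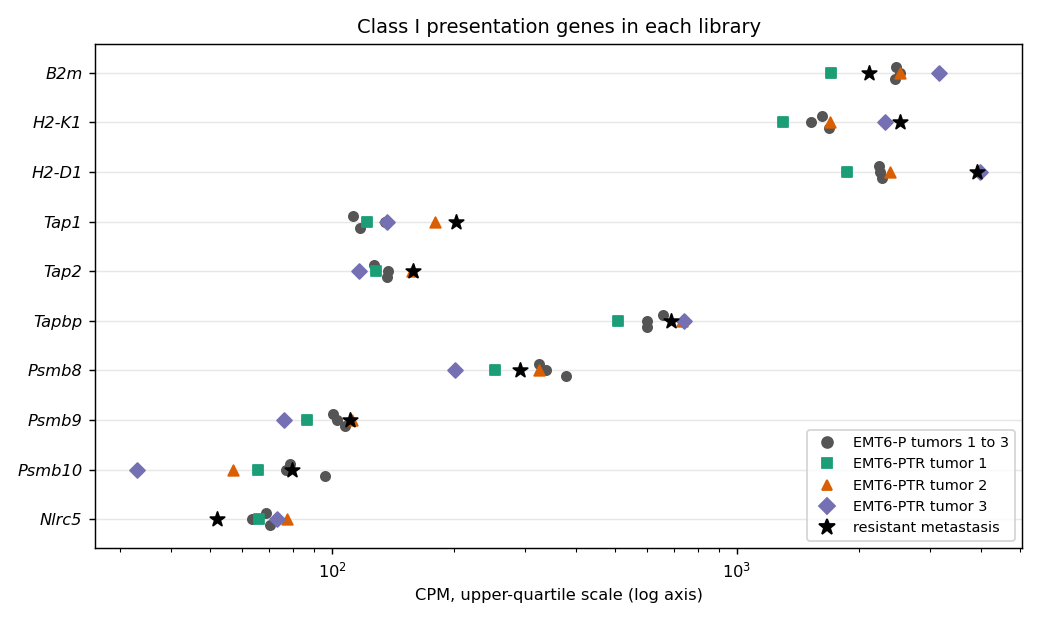
Level of each of the 10 genes (rows) in CPM on a log axis, with grey circles for the 3 EMT6-P tumors, a square, a triangle and a diamond for EMT6-PTR tumors 1 to 3 and a star for the metastasis. The EMT6-P circles lie close together in every row, whereas the EMT6-PTR symbols spread to both sides in most rows and lie to the left of the circles for Psmb10.

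The 3 EMT6-PTR tumors differed from one another across the members. EMT6-PTR tumor 1 lay below all EMT6-P tumors for 7 members (B2m, H2-K1, H2-D1, Tapbp, Psmb8, Psmb9 and Psmb10) and above them for 0, beside 32.5% and 32.6% of all genes. EMT6-PTR tumor 2 lay above all EMT6-P tumors for 7 members and below them for 2, beside 33.8% and 38.1% of all genes. EMT6-PTR tumor 3 lay above for 6 and below for 4 (Tap2, Psmb8, Psmb9 and Psmb10), beside 39.8% and 42.7% of all genes. Relative to the mean log2 CPM of the EMT6-P tumors, the median of the members was -0.27 in EMT6-PTR tumor 1, 0.096 in tumor 2 and 0.15 in tumor 3, while the median of all genes stayed between -0.026 and 0.003.

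The roles differed among the EMT6-PTR tumors. For B2m and the 2 heavy chains the median log2 difference from the EMT6-P mean was -0.31, 0.079 and 0.53 in EMT6-PTR tumors 1, 2 and 3. For Tap1, Tap2 and Tapbp it was -0.053, 0.24 and 0.18. For Psmb8, Psmb9 and Psmb10 it was -0.34, -0.092 and -0.79. The medians of chains and immunoproteasome subunits thus lay on the same side of the EMT6-P mean in tumor 1 and on opposite sides in tumors 2 and 3, close to the mean in tumor 2 and far from it in tumor 3.

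**Figure D2:**
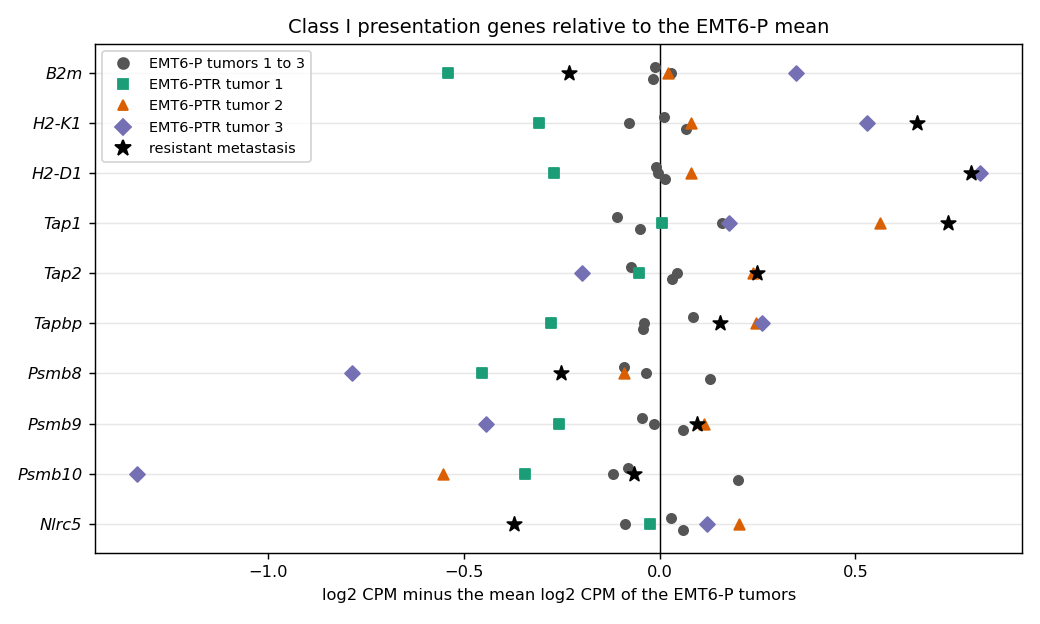
Log2 CPM of each gene minus the mean log2 CPM of the EMT6-P tumors, which is the vertical line at 0, with the same symbols. The diamond of EMT6-PTR tumor 3 lies to the right for B2m, H2-K1 and H2-D1 and far to the left for Psmb8, Psmb9 and Psmb10. The square of tumor 1 lies to the left of the line in every row but Tap1, and close to it for Tap2 and Nlrc5.

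B2m (ENSMUSG00000060802.8, chr2:122147686-122153083, plus strand, GRCm38) encodes the light chain shared by all class I molecules. It measured 2450, 2532 and 2463 CPM in EMT6-P tumors 1 to 3 and 1705, 2520 and 3156 CPM in EMT6-PTR tumors 1 to 3. The EMT6-P values sat within a narrow band, with 1 EMT6-PTR tumor below it, 1 inside it and 1 above it. The means were 2482 ± 44.1 and 2460 ± 727 CPM (SD, n = 3 each). The log2 fold change was -0.013 with a standard error of 0.248 (adjusted p 0.985, edgeR), and it was 0.011 with TMM scaling, so no direction is given for B2m.

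H2-K1 (ENSMUSG00000061232.15, chr17:33996017-34000347, minus strand) and H2-D1 (ENSMUSG00000073411.11, chr17:35262730-35267499, plus strand) encode the classical heavy chains K and D, which bind the peptide. H2-K1 measured 1682, 1519 and 1618 CPM in EMT6-P and 1296, 1696 and 2316 CPM in EMT6-PTR, and its log2 fold change was 0.14 with a standard error of 0.238 (adjusted p 0.823). H2-D1 measured 2279, 2253 and 2246 CPM in EMT6-P and 1873, 2387 and 3986 CPM in EMT6-PTR, and its log2 fold change was 0.28 with a standard error of 0.295 (adjusted p 0.700). For both genes tumor 1 was below the EMT6-P range, tumor 2 just above it and tumor 3 well above it, at 1.44 times the EMT6-P mean for H2-K1 and 1.76 times for H2-D1. Without EMT6-PTR tumor 3 the log2 fold change was -0.10 for H2-K1 and -0.087 for H2-D1, so the direction above 0 rested on that tumor.

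The counting program RSEM shared out reads that fit several class I genes, and the K and D alleles of BALB/c differ from those of the reference genome, so the split of reads between H2-K1, H2-D1 and their relatives is uncertain. A sum over 20 heavy chain genes does not depend on the split among them, but reads shared with other genes or left unaligned could change it. This sum was 5432, 5280 and 5286 CPM in EMT6-P, 4483, 5958 and 8451 CPM in EMT6-PTR and 8557 CPM in the metastasis. The tumors kept the order seen for H2-K1 and H2-D1, and the log2 fold change of the sum was 0.24 with a standard error of 0.266 (adjusted p 0.716). It was -0.032 without EMT6-PTR tumor 3 and 0.43 without EMT6-PTR tumor 1, so the sign of the sum rested on tumor 3 as well.

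Within EMT6-PTR the ratio of heavy chain to light chain varied less than the level of either gene. Per exon length, H2-D1 amounted to 0.310, 0.297 and 0.304 of B2m in EMT6-P and to 0.366, 0.316 and 0.421 in EMT6-PTR tumors 1 to 3, without overlap of the groups. H2-K1 amounted to 0.201, 0.176 and 0.192 of B2m in EMT6-P and to 0.222, 0.197 and 0.215 in EMT6-PTR, and here tumor 2 fell within the EMT6-P range. In the metastasis the ratios were 0.618 for H2-D1 and 0.351 for H2-K1. Of the 9 ratios computed between pairs of pathway genes, the groups did not overlap for 2, H2-D1 over B2m and Tap1 over Psmb9, and these ratios were not tested.

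Among the other 18 heavy chain genes, which include the nonclassical molecules that present to more specialised T cells, 15 passed the filter on low counts. None was called, the log2 fold changes of 12 were positive and those of 3 negative, and the median was 0.23. With all 18 counted, tumor 1 was below all EMT6-P tumors for 10 and above them for 2, beside 32.5% and 32.6% of all genes. For tumor 2, 14 of these genes were higher than in any EMT6-P tumor and 3 were lower. Over all genes tested these shares were 33.8% and 38.1%. The numbers for both tumors cover H2-T3, H2-M2 and H2-M5 too, which failed the filter and had only 0 to 9 counts per library. Reads were shared out among related genes, so these genes are not independent. H2-T23, which encodes the Qa-1 molecule read by inhibitory receptors of natural killer cells, measured 221 ± 1.67 CPM in EMT6-P and 281 ± 60.2 CPM in EMT6-PTR, a log2 difference of 0.35 with a standard error of 0.187 (adjusted p 0.494). Cd1d1, which presents lipids, measured 2.89 ± 0.880 and 1.77 ± 0.186 CPM (log2 fold change -0.70, standard error 0.33, adjusted p 0.461, or -0.44 without EMT6-P tumor 2). H2-T24 measured 4.57 ± 1.16 and 9.57 ± 7.27 CPM (log2 fold change 1.06, standard error 0.583, adjusted p 0.500, or 0.28 without EMT6-PTR tumor 2).

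Tap1 (ENSMUSG00000037321.17, chr17:34187553-34197225, plus strand) encodes 1 chain of the peptide transporter. It measured 117, 135 and 113 CPM in EMT6-P and 122, 179 and 137 CPM in EMT6-PTR. Tumor 2 was the high one, at 1.47 times the EMT6-P mean, and tumor 1 lay inside the EMT6-P range. The means were 122 ± 12.1 and 146 ± 29.8 CPM, with a log2 fold change of 0.26 and a standard error of 0.183 (adjusted p 0.575), which was 0.092 without EMT6-PTR tumor 2.

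Tap2 (ENSMUSG00000024339.12, chr17:34203527-34216321, plus strand) encodes the partner chain. It measured 136, 138 and 127 CPM in EMT6-P and 129, 158 and 116 CPM in EMT6-PTR, so the groups were interleaved. The log2 fold change was 0.006 with a standard error of 0.153 (adjusted p 0.988), and it turned to -0.0019 with limma-voom, so no direction is given. Per exon length Tap1 stood at 0.628 ± 0.0452 of Tap2 in EMT6-P and at 0.751 ± 0.0857 in EMT6-PTR, and the groups overlapped.

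Tapbp (ENSMUSG00000024308.14, chr17:33915899-33929292, plus strand) encodes tapasin, which edits the bound peptide. It measured 599, 600 and 655 CPM in EMT6-P and 510, 732 and 740 CPM in EMT6-PTR. Tumor 1 lay below and tumors 2 and 3 above the EMT6-P range, and the log2 fold change was 0.096 with a standard error of 0.187 (adjusted p 0.848). It was 0.0047 without EMT6-PTR tumor 3 and 0.25 without EMT6-PTR tumor 1. Neighbouring genes share annotated exon bases with several members. On the same strand these are 149 between Tapbp and Zbtb22. On opposite strands they are 904 between Tapbp and Gm19412, 533 between Tap2 and Gm15821, 498 between Psmb8 and Gm20496, 212 between Tap1 and Psmb9, 165 between Tap2 and Gm20496 and 78 between Nlrc5 and 9330175E14Rik. The libraries keep strand, and the strand setting of the counting is not given in the sources used here.

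The 8 further genes of loading and trimming, among them chaperones of the endoplasmic reticulum, had a median log2 fold change of -0.12, with 2 above 0, 6 below and none called. Calr, encoding the chaperone calreticulin, measured 926, 1130 and 1029 CPM in EMT6-P and 908, 951 and 448 CPM in EMT6-PTR, where tumor 3 was the low one (log2 fold change -0.42, standard error 0.3, adjusted p 0.582, and -0.15 without it). Pdia3, the disulfide isomerase that pairs with tapasin, averaged 867 ± 30.9 and 703 ± 147 CPM without overlap (log2 fold change -0.30, standard error 0.193, adjusted p 0.546), and the log2 fold change was -0.14 without EMT6-PTR tumor 3. Bcap31 averaged 114 ± 6.91 and 98.7 ± 8.36 CPM, also without overlap (log2 fold change -0.21, standard error 0.129, adjusted p 0.536).

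Psmb8 (ENSMUSG00000024338.14, chr17:34197721-34201454, plus strand) encodes the chymotrypsin-like subunit of the immunoproteasome. It measured 379, 338 and 325.2 CPM in EMT6-P and 253, 324.9 and 201 CPM in EMT6-PTR. All EMT6-PTR tumors were below all EMT6-P tumors, tumor 2 only just, and the means were 347 ± 27.9 and 260 ± 62.4 CPM. The log2 fold change was -0.42 with a standard error of 0.203 (adjusted p 0.468), and -0.27 without EMT6-PTR tumor 3.

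Psmb9 (ENSMUSG00000096727.2, chr17:34181987-34187764, minus strand) encodes the subunit that takes the place of the caspase-like one. It measured 108, 103 and 100.4 CPM in EMT6-P and 86.6, 112 and 76.1 CPM in EMT6-PTR. Tumors 1 and 3 were below the EMT6-P range and tumor 2 above it, with a log2 fold change of -0.18 and a standard error of 0.171 (adjusted p 0.672), which was -0.064 without EMT6-PTR tumor 3. Psmb9 and Tap1 start close together on opposite strands and share a promoter region, yet Tap1 stood at 0.726, 0.882 and 0.749 of Psmb9 per exon length in EMT6-P and at 0.940, 1.07 and 1.20 in EMT6-PTR, so this ratio was higher in each EMT6-PTR tumor than in any EMT6-P tumor.

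Psmb10 (ENSMUSG00000031897.9, chr8:105935735-105938444, minus strand) encodes the trypsin-like subunit of the immunoproteasome and is the subunit whose gene lies outside the MHC region. It measured 96.0, 76.9 and 79.0 CPM in EMT6-P and 65.8, 56.8 and 33.1 CPM in EMT6-PTR. All 3 EMT6-PTR tumors were below all EMT6-P tumors, and tumor 3 was at 0.394 times the EMT6-P mean. The means were 84.0 ± 10.5 and 51.9 ± 16.9 CPM, with a log2 fold change of -0.69 and a standard error of 0.265 (adjusted p 0.432). The value lay between -0.91 without EMT6-PTR tumor 1 and -0.45 without EMT6-PTR tumor 3.

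The constitutive counterparts were lower as well. Psmb5, replaced by Psmb8, averaged 80.7 ± 2.64 CPM in EMT6-P and 53.3 ± 3.47 CPM in EMT6-PTR (log2 fold change -0.60, standard error 0.117, adjusted p 0.421). Psmb6, replaced by Psmb9, averaged 128 ± 4.90 and 102 ± 10.6 CPM (log2 fold change -0.32, standard error 0.132, adjusted p 0.437). Psmb7, replaced by Psmb10, averaged 177 ± 3.31 and 127 ± 14.1 CPM (log2 fold change -0.48, standard error 0.134, adjusted p 0.421). For these 3 genes no EMT6-PTR tumor reached the EMT6-P range, beside 11.8% of all genes that lay lower without overlap. None of the 3 was called by edgeR.

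Set against their counterparts, the induced subunits did not separate the groups. Per exon length, Psmb8 stood at 1.20, 1.14 and 1.08 times Psmb5 in EMT6-P and at 1.19, 1.74 and 0.996 times in EMT6-PTR. Psmb9 stood at 0.417, 0.410 and 0.419 times Psmb6 in EMT6-P and at 0.433, 0.629 and 0.347 times in EMT6-PTR. Psmb10 stood at 1.11, 0.855 and 0.904 times Psmb7 in EMT6-P and at 0.934, 0.906 and 0.586 times in EMT6-PTR. In tumor 2 the first 2 ratios were above every EMT6-P tumor, and in tumor 3 all 3 ratios were below every EMT6-P tumor.

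The 6 genes of the proteasome activator and of its assembly all had log2 fold changes below 0, with a median of -0.45, and none was called by edgeR. Pomp, the chaperone that matures the proteasome, averaged 164 ± 6.37 CPM in EMT6-P and 106 ± 12.9 CPM in EMT6-PTR (log2 fold change -0.63, standard error 0.14, adjusted p 0.421). Psmg1, another assembly chaperone, averaged 17.7 ± 1.56 and 12.6 ± 1.14 CPM (log2 fold change -0.49, standard error 0.164, adjusted p 0.427). Psme2, a subunit of the interferon-induced activator PA28, averaged 172 ± 14.2 and 117 ± 34.7 CPM (log2 fold change -0.56, standard error 0.235, adjusted p 0.441, or -0.35 without EMT6-PTR tumor 3). These 3 genes, named for the smallest p of their list, did not overlap between the groups. Of the 6 genes, 4 lay lower without overlap, beside 11.8% of all genes. DESeq2 called 2 of the 56 tested genes of the wider pathway, beside 281 of all 15645 genes, of which 138 were higher. Both pathway genes were lower in EMT6-PTR by DESeq2, Psmb5 (log2 fold change -0.58, adjusted p 0.00114) and Pomp (log2 fold change -0.61, adjusted p 0.01).

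**Figure D3:**
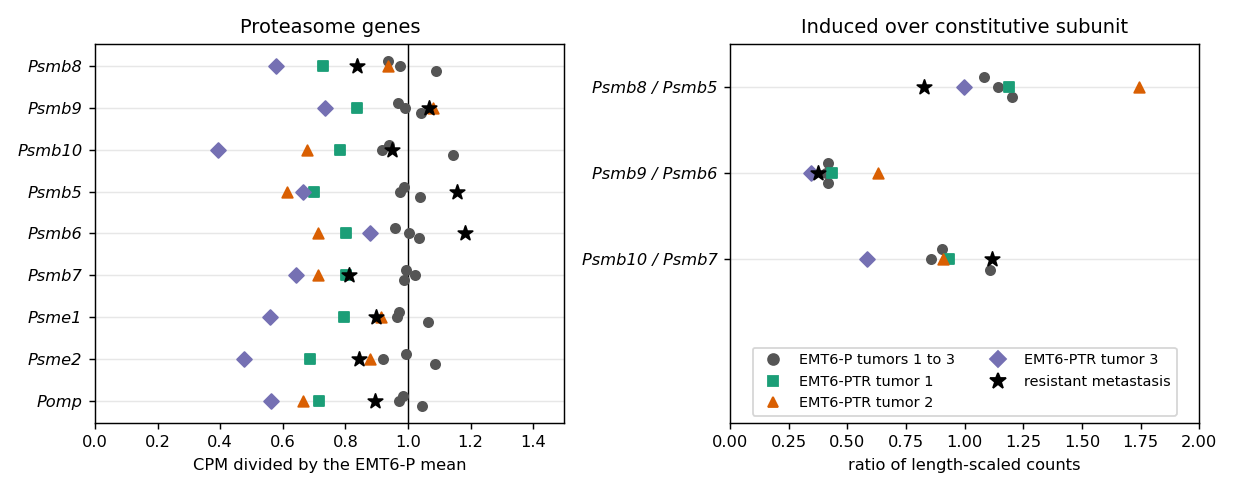
Left, CPM of proteasome genes divided by the EMT6-P mean, with a line at 1. Right, the ratio of each immunoproteasome subunit to its constitutive counterpart after scaling to exon length. Circles are the 3 EMT6-P tumors, square, triangle and diamond are EMT6-PTR tumors 1 to 3 and the star is the metastasis. Every EMT6-PTR symbol lies left of the EMT6-P circles for Psmb10, Psmb5, Psmb6, Psmb7 and Pomp, while on the right the groups overlap in each row and the triangle of tumor 2 stands at 1.74 for Psmb8 over Psmb5.

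Nlrc5 (ENSMUSG00000074151.13, chr8:94434356-94527272, plus strand) encodes the transactivator of class I genes. It measured 70.2, 63.4 and 68.6 CPM in EMT6-P and 66.2, 77.5 and 73.1 CPM in EMT6-PTR. Tumor 1 was inside the EMT6-P range and tumors 2 and 3 somewhat above it, and the log2 fold change was 0.10 with a standard error of 0.123 (adjusted p 0.740), and it was 0.051 without EMT6-PTR tumor 2. Of the members it had the smallest spread within EMT6-PTR, 72.3 ± 5.72 CPM.

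The 16 other regulators of class I transcription had a median log2 fold change of 0.017, with 9 above 0, 7 below and none called. Rela, an NF-κB subunit, averaged 87.0 ± 3.39 CPM in EMT6-P and 66.1 ± 11.0 CPM in EMT6-PTR without overlap (log2 fold change -0.40, standard error 0.154, adjusted p 0.433). Nfkb1 averaged 73.6 ± 1.15 and 88.3 ± 24.2 CPM (log2 fold change 0.26, standard error 0.206, adjusted p 0.608, or 0.032 without EMT6-PTR tumor 2). Stat2, which carries type I interferon signals, averaged 44.0 ± 11.6 and 73.2 ± 33.8 CPM (log2 fold change 0.73, standard error 0.352, adjusted p 0.468, or 0.29 without EMT6-PTR tumor 2). Irf1, which acts directly on these promoters after interferon γ, was added after its values had been seen: it measured 96.0, 134 and 58.4 CPM in EMT6-PTR tumors 1 to 3, beside 82.6 to 105 CPM in EMT6-P. Tumor 2 was the highest and tumor 3 the lowest of the 6 primary tumors.

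The genes of interferon γ and its receptor pathway had a median log2 fold change of 0.12 over the 5 of 6 that passed the filter, with none called. Ifng itself was near the detection limit, at 0.0391 to 0.446 CPM in the primary tumors. Jak2 averaged 53.7 ± 1.66 and 61.7 ± 7.35 CPM (log2 fold change 0.20, standard error 0.134, adjusted p 0.564), Ifngr1 74.5 ± 1.14 and 89.6 ± 29.1 CPM (log2 fold change 0.27, standard error 0.235, adjusted p 0.648, or -0.017 without EMT6-PTR tumor 3), and Jak1 167 ± 20.3 and 181 ± 24.3 CPM (log2 fold change 0.12, standard error 0.163, adjusted p 0.767, or 0.015 without EMT6-PTR tumor 1). Of the genes of type I interferon and its receptor, 3 of 6 passed the filter, with a median of 0.059. Tyk2 averaged 26.5 ± 0.973 and 28.7 ± 0.740 CPM without overlap (log2 fold change 0.12, standard error 0.119, adjusted p 0.697), and Ifnar2 had a log2 fold change of 0.059. Ifnar1 had one of 0.005, which ranged from -0.12 to 0.15 with 1 tumor left out. Over all 63 wider pathway genes, 56 passed the filter, 0 were called by edgeR, 0 were higher and 6 lower at an unadjusted p under 0.05, beside 5.84% and 5.57% of all genes. Without overlap of the groups, 2 of the 56 were higher and 12 lower, beside 9.52% and 11.8% of all genes, and the median log2 fold change was 0.005.

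The metastasis is 1 library and allows no test. It measured 2114 CPM of B2m, 2532 of H2-K1, 3920 of H2-D1, 202 of Tap1, 159 of Tap2, 687 of Tapbp, 291 of Psmb8, 111 of Psmb9, 79.7 of Psmb10 and 52.0 of Nlrc5. It lay above all 3 EMT6-PTR primary tumors for 4 members (H2-K1, Tap1, Tap2 and Psmb10), beside 25.8% of all genes, and below all 3 for 1 member (Nlrc5), beside 29% of all genes. Compared with the mean of the EMT6-PTR primary tumors, H2-K1 was at 1.43 times, H2-D1 at 1.43 times and Tap1 at 1.38 times, while B2m was at 0.859 times and Nlrc5 at 0.719 times. Heavy chains were thus high and their light chain was not. Psmb10 was at 0.950 times the EMT6-P mean.

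The libraries also differed in the summed CPM of cell type marker lists. The fibroblast list (Col1a1, Col3a1, Dcn, Pdgfra, Lum) summed to 3322 to 4483 CPM in EMT6-P and to 4041, 5914 and 16050 CPM in EMT6-PTR tumors 1 to 3. Tumor 3 exceeded all EMT6-P tumors for 4 of its 5 genes, beside 39.8% of all genes, with Dcn at 3345 CPM against 32.2 to 55.2 CPM. In the same tumor the carcinoma epithelium list summed to 595 CPM against 2163 to 2347 CPM in EMT6-P, most of it Krt8. Krt8, Krt18 and Cdh1 lay below all EMT6-P tumors there, and Krt19 and Epcam lay within the EMT6-P range. The leukocyte list of tumor 3 summed to 267 CPM against 395 to 442 CPM, with 3 of 3 genes below. Of all genes, 42.7% lay below all EMT6-P tumors in tumor 3. In tumor 2 the T cell list summed to 17.6 CPM against 3.69 to 5.65 CPM, with 7 of 7 genes above all EMT6-P tumors, beside 33.8% of all genes. The B cell list of tumor 2 summed to 8.24 CPM against 0.514 to 1.27 CPM. In tumor 1 the skeletal muscle list summed to 3158 CPM against 8.04 to 563 CPM, with 4 of 4 genes above, beside 32.6% of all genes. No marker of leukocytes, T cells, fibroblasts or carcinoma epithelium was at 0 in any library. The part of these cells in the members' values was not tested. Without EMT6-PTR tumor 3 no member was called either, and the members' median log2 fold change was -0.075.

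Macrophage markers stood at 1066 to 1401 CPM in EMT6-PTR and 1158 to 1391 CPM in EMT6-P, neutrophil markers at 32.4 to 46.1 and at most 57.4 CPM, endothelial markers at 81.5 to 137 and 93.0 to 118 CPM, dendritic cell markers at 9.56 to 13.5 and 5.84 to 8.73 CPM, and natural killer cell markers at or under 1.56 CPM in every primary tumor. Adipocyte markers reached 2.73 CPM and lung markers 1.27 CPM at most in the primary tumors, with all 4 lung markers (Sftpc, Sftpa1, Sftpb, Scgb1a1) at 0 counts in EMT6-P tumor 2 and EMT6-PTR tumors 1 and 2. In the metastasis the lung list summed to 7322 CPM, the neutrophil list to 2502 CPM, the endothelial list to 660 CPM and the T cell list to 30.5 CPM. Its carcinoma epithelium list summed to 1320 CPM, where Krt8 and Krt18 lay below all EMT6-P tumors and Krt19, Epcam and Cdh1 above them. The fibroblast list summed to 9975 CPM in the metastasis against 3322 to 4483 CPM in EMT6-P. Col3a1, Dcn and Pdgfra lay above all EMT6-P tumors, Lum within their range and Col1a1 below them. Heavy chain levels of the metastasis thus stood beside high lung, neutrophil, endothelial and fibroblast markers, whose part was not tested.

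**Figure D4:**
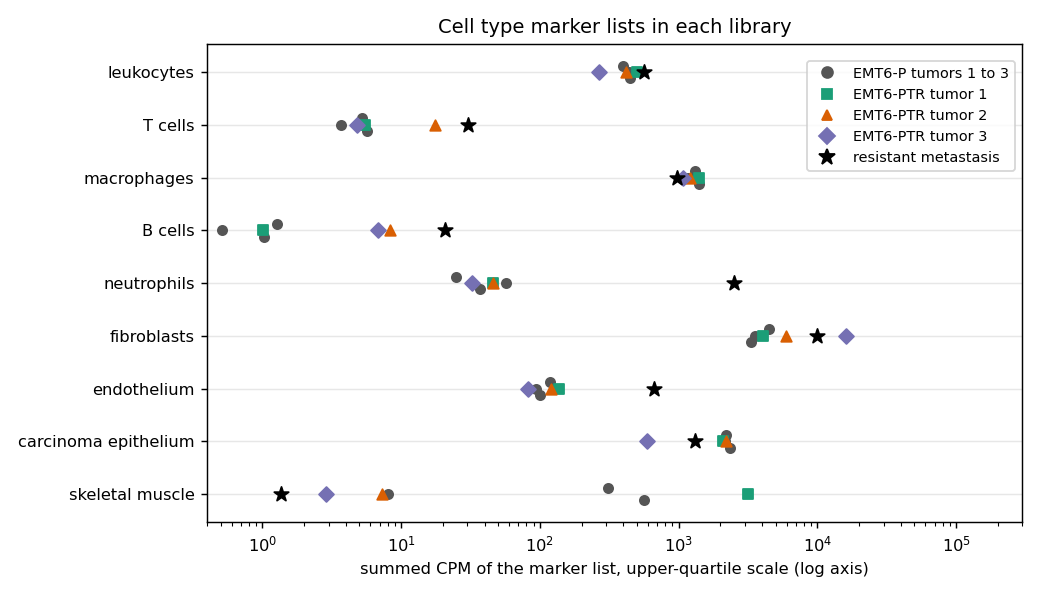
Summed CPM of each marker list (rows) on a log axis in the 7 libraries, with the same symbols. The diamond of EMT6-PTR tumor 3 is highest for fibroblasts at 16050 CPM and lowest for carcinoma epithelium at 595 CPM, the triangle of tumor 2 leads the primary tumors for T cells, the square of tumor 1 leads for skeletal muscle, and the star of the metastasis is far to the right for neutrophils.

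By the root mean square difference of log2 CPM from the members' median over the 7 libraries, the genes with the most similar pattern were Wdr70 (0.059), Mgat4b (0.064), Ccdc9 (0.067), Fahd1 (0.068) and Arf3 (0.069).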

How the data were processed

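RNA from 7 tumor samples was sequenced from stranded libraries of polyadenylated RNA. Per the labels and the methods, the authors checked reads with FastQC 0.11.5, aligned them with STAR 2.6.0a to GRCm38 with the GENCODE M16 annotation and estimated counts per gene with RSEM 1.3.1. The deposited values are RSEM estimated counts, neither filtered nor normalized, with 13.5% to 15.6% of values fractional and totals of 20430110 to 25213472 per library. RSEM divides reads among similar genes by estimation.

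Symbols and positions were taken from GENCODE M21 of the same build (53274 of 53465 with a symbol). Counts were rounded, filtered with filterByExpr, scaled by upper quartile and tested with edgeR 4.0.16 (glmQLFit, glmQLFTest) in R 4.3.3 between 3 EMT6-P and 3 EMT6-PTR primary tumors, without covariates, with Benjamini-Hochberg adjustment over 15645 genes and a threshold of 0.05. Standard errors are the size of the log2 fold change divided by the square root of F. Log2 CPM used a prior count of 2. The fits were tested on simulated counts. Promoter sequences came from RefSeq tables of GRCm38.p6. Python 3.11.15 was used for tables and plots.

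The members and the gene lists were chosen with earlier results of these data known. All 10 members are named, with up to 3 genes per pathway list of smallest p, the constitutive counterparts of the immunoproteasome subunits, and the 5 genes nearest to the members' median pattern. Alternatives were TMM scaling, DESeq2 1.42.0, limma-voom (limma 3.58.1), no filter, a minimum of 10 counts in each tumor, a fit that also held the metastasis as a group, the replicate number as a block, the count table without CT010467.1, the summed heavy chains, and each tumor left out in turn, which was added for the summed heavy chains and the named pathway genes after seeing the data.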

Additional observations from a re-analysis of the deposited data

How the results depend on the processing

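No member was called under any alternative, and of 142 recomputed member log2 fold changes 133 kept their direction and 9 did not. B2m turned to 0.011 with TMM scaling and 0.010 with DESeq2, and ranged from -0.23 without EMT6-PTR tumor 3 to 0.19 without EMT6-PTR tumor 1. Leaving out 1 tumor gave -0.10 to 0.32 for H2-K1, -0.087 to 0.49 for H2-D1 and -0.12 to 0.098 for Tap2, which also turned to -0.0019 with limma-voom. The cause was not tested. DESeq2 called 281 genes in all and 2 of the wider pathway. The members' median ranged from -0.075 without EMT6-PTR tumor 3 to 0.17 without EMT6-PTR tumor 1, less than the SD of 0.284 between tumors from its main value. With the replicate number as a replicate block, 0 genes were called, 1268 had an unadjusted p under 0.05 (1786 without it) and Tap2 was -0.0045, while the deviations of same-numbered tumors correlated at 0.26, 0.25 and 0.038, so the numbers were not taken as pairs. Leaving out 1 tumor moved the count at an unadjusted p under 0.05 between 618 and 3234. In fits added after seeing the data, the summed heavy chains ranged from -0.032 without EMT6-PTR tumor 3 to 0.43 without EMT6-PTR tumor 1, and no wider pathway gene was called with 1 tumor left out. Reads shared among near-identical class I genes were not measured here and leave H2-K1 and H2-D1 uncertain.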
